A study of Mus musculus with 6 samples.

Results

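The genes described here encode the steps that carry glucose into the cell, break it down to pyruvate and lactate, pass pyruvate to the mitochondrion, and store or release glycogen. They were chosen as a list of 44 symbols, with earlier results of these data known. The symbols were mapped through the GENCODE M21 annotation to the gene identifiers of the deposited tables, and 43 of the 44 were found among 14548 genes. *Pygl*, the liver form of glycogen phosphorylase, was not analysed for expression here. RNA-seq was run on C2C12, a mouse myoblast line (precursors of skeletal muscle fibres) grown in serum-containing basal medium. There were 3 WT libraries and 3 MSTN-KO libraries, the latter from C11, cells in which the third exon of the myostatin gene was targeted with CRISPR/Cas9. As MSTN-KO is 1 line, the loss of MSTN cannot be told apart from anything else that sets C11 apart from WT. The strain label reads C11 for WT as well, so grouping followed the genotype label.

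In glycolysis, glucose is taken up by GLUT transporters, phosphorylated by hexokinase, committed by phosphofructokinase and split into triose phosphates, which yield ATP and pyruvate. Pyruvate is either reduced to lactate and exported by monocarboxylate transporters (MCTs) or oxidized by the pyruvate dehydrogenase complex. Many of these steps have a form typical of mature muscle beside a general one. Myoblasts use the general forms for the most part, and the muscle forms come up as fibres differentiate. Glycogen is the glucose store that muscle draws on during contraction.

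The values were FPKM, which correct for transcript length and library size, so levels of different genes in 1 library can be compared. Summed over all genes, FPKM ranged from 723705 to 764524 for WT and from 856314 to 999579 for MSTN-KO. When all libraries were scaled to the same sum, the median log2 difference over all genes moved from -0.00078 to -0.26. The number of reads is unknown. The smallest steps among genes under 0.1 FPKM put the depth of the other libraries at 0.877 to 1.11 times that of WT replicate 1. *Mstn* itself was between 0 and 0.0586 FPKM in the 6 libraries and could not check the labels. The myoblast factor *Myod1* was present throughout, at 125.9 to 167.5 FPKM in WT and 90.8 to 104 FPKM in MSTN-KO, where it was lower (log2 fold change -0.58, limma adjusted p = 0.00986). Of the 5 tested myoblast markers, *Des* (-0.96) and *Mymk* (-2.27) fell as well, *Pax7* rose (0.64) and *Myf5* was not called (0.08). Summed FPKM of the listed endothelial markers did not exceed 0.167 in any library, that of the epithelial markers 0.492 and that of the macrophage markers 2.45. These sums cover the markers found among the identifiers, 4 of 4 endothelial, 2 of 4 epithelial and 3 of 5 macrophage genes. Of the listed fibroblast and adipocyte markers, 4 of 6 and 3 of 5 were found. The level of a marker that was not found is unknown. Fibroblast markers summed to 181 to 253 FPKM in WT and 321 to 385 FPKM in MSTN-KO, mostly *Col3a1*, which rose (0.68, limma adjusted p = 0.00765). Adipocyte markers summed to 5.69 to 6.48 and 6.74 to 9.94 FPKM, and *Fabp4* among them rose (0.83, limma adjusted p = 0.00924). *Fabp4* reached 1 FPKM in MSTN-KO only, so it entered the test through the group where it was higher. The part of these markers in the differences below was not tested.

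The first question was which of these genes differed between MSTN-KO and WT cells. Of the 43 genes, 41 reached 1 FPKM in at least 1 library and were tested, among 10837 genes in all. *Slc2a3* and *Phkg1* stayed below this level in all 6 libraries. In MSTN-KO, 9 genes rose at a limma adjusted p under 0.05, namely *Gpi1*, *Pfkl*, *Aldoa*, *Tpi1*, *Gapdh*, *Pgk1*, *Pgam1*, *Ldha* and *Pdk1*, all by less than 1 on the log2 scale. Another 5 fell, namely *Slc16a3*, *Pgam2*, *Pfkp*, *Pygm* and *Aldoc*. The 9 higher genes were 22.0% of those tested, where 8.78% of all genes were called higher, and the 5 lower genes were 12.2%, where 8.96% of all genes were called lower. Of the 5 lower genes, *Pgam2*, *Pygm* and *Aldoc* reached 1 FPKM in WT libraries only, and *Slc16a3* and *Pfkp* reached it in both groups. *Slc2a4* reached it in MSTN-KO only. The log2 fold changes of the 41 genes had a median of 0.13, against -0.00078 over all genes tested.

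The calls of most rises depended on the scaling and on single libraries. Scaled to the same sum, 1 gene (*Ldha*) was called higher, or 2.44%, where 3.23% of all genes were, and 10 were called lower, or 24.4%, where 21.8% of all genes were. These shares were near those of all genes. Relative to the median of all genes under that scaling, the 9 risen genes lay higher by 0.41 to 0.62. This does not test the rises, since the scaling moves most genes alike and the 9 were picked as higher. Without WT replicate 2, WT replicate 3 or MSTN-KO replicate 1, the number of called rises was 2, 3 or 4 (4.88%, 7.32% or 9.76%), while the share of all genes called higher was 3.92%, 5.59% or 4.73%. Without WT replicate 1 it was 6 (14.6%), while 7.38% of all genes were called higher. *Pdk1* and *Pfkl* were kept with each library left out. The number of falls was 3 (7.32%) without WT replicate 1 or WT replicate 2, while 6.14% or 5.61% of all genes were called lower. *Slc16a3*, *Pgam2* and *Pfkp* kept their call under all 16 alternatives. The study's thresholds for DEGs, a p below 0.05 and a log2 difference beyond 1 in size, were applied here to the unadjusted p. By these, the same 3 genes were downregulated, where 2.30% of all genes passed. No member passed in the upper direction, where 1.21% of all genes did. With a pseudocount of 0.1, 5 members passed as lower and 1 as higher, and the shares of all genes at that pseudocount were not computed.

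**Figure D1:**
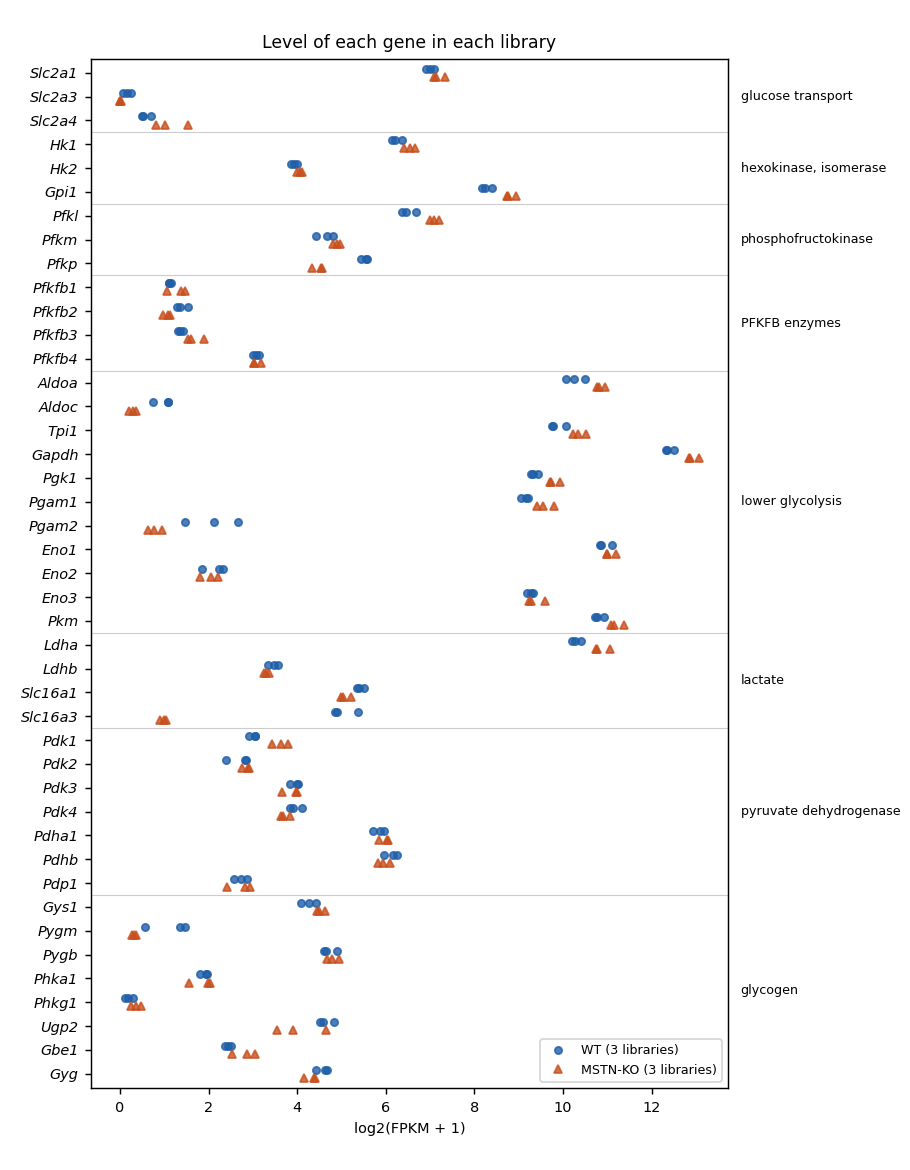
Level of each of the 43 genes as log2(FPKM + 1) in the 3 WT libraries (circles) and the 3 MSTN-KO libraries (triangles), ordered by role. *Gapdh* lies highest, *Slc16a3* has the widest gap between the groups, and *Slc2a3* and *Phkg1* lie near 0.

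**Figure D2:**
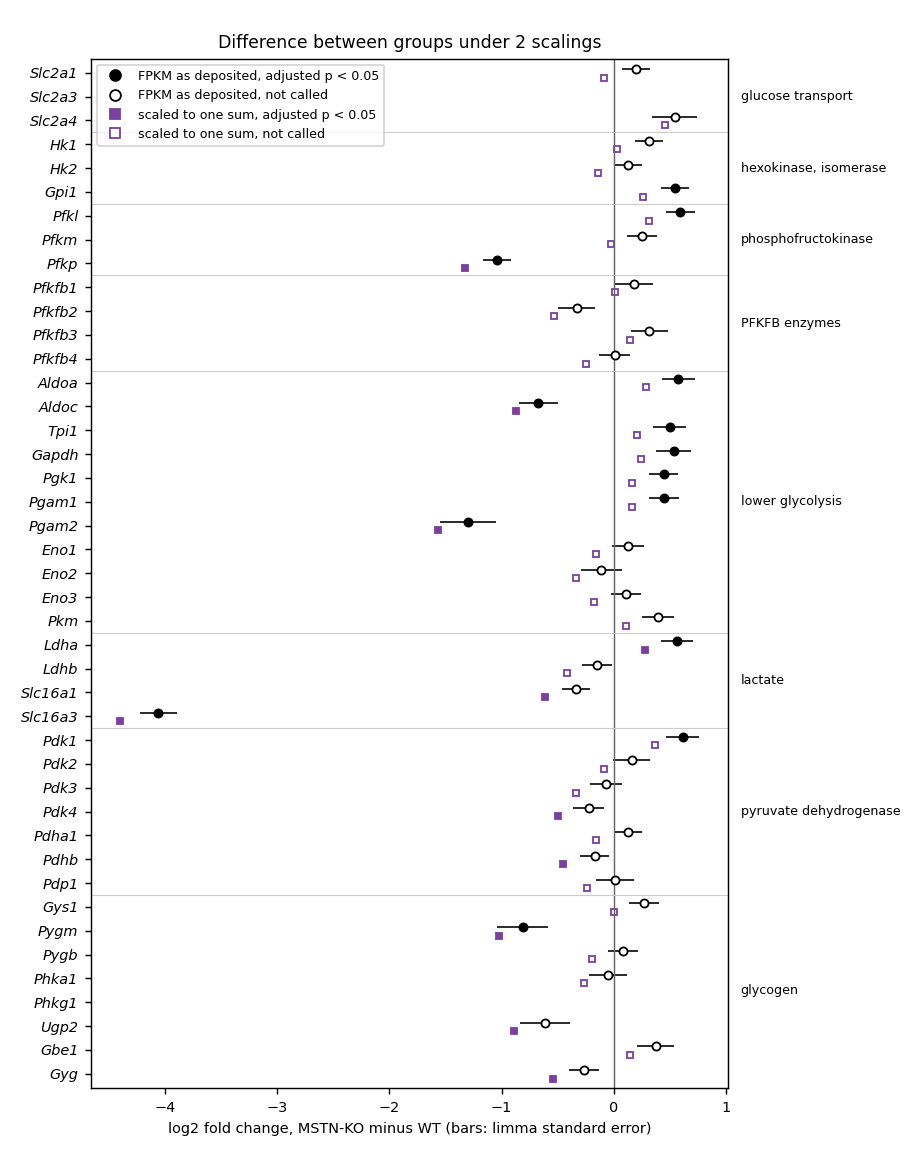
Log2 fold change (MSTN-KO minus WT) of the 41 tested genes. Circles with standard errors show FPKM as deposited and squares the same values after scaling each library to the same sum, with filled symbols for an adjusted p under 0.05 and empty rows for the untested *Slc2a3* and *Phkg1*. The 9 filled circles right of 0 become 1 filled square (*Ldha*), while *Slc16a3*, *Pgam2* and *Pfkp* stay filled on the left.

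Glucose entry and the first steps rested on general forms in both groups. *Slc2a1* encodes GLUT1, the widespread glucose transporter, and had 135.7, 118 and 127 FPKM in WT and 134.7, 140.04 and 161 FPKM in MSTN-KO. The groups overlapped (log2 fold change 0.19, limma adjusted p = 0.299). *Slc2a4*, for the insulin-responsive GLUT4 of muscle and fat, had 0.410, 0.434 and 0.638 FPKM in WT and 0.764, 1.01 and 1.88 FPKM in MSTN-KO. Every MSTN-KO library was above every WT library, but the difference of 0.54 was not called (limma adjusted p = 0.0825) and *Slc2a4* made up at most 1.15% of the summed transporter FPKM in any library. *Slc2a3*, for the high-affinity GLUT3, was at 0.0426 to 0.187 FPKM in WT and 0 to 0.0154 FPKM in MSTN-KO.

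Hexokinase showed no called change. *Hk1* had 81.03, 72.4 and 68.96 FPKM in WT and 92.9, 83.8 and 100.3 FPKM in MSTN-KO (log2 fold change 0.31, limma adjusted p = 0.103). *Hk2*, the form typical of insulin-sensitive tissue, had 14.1, 13.6 and 15.1 FPKM against 15.8, 14.9 and 16.3 FPKM (0.13, limma adjusted p = 0.526), and its sign turned to -0.14 with scaling to the same sum. *Gpi1* encodes the isomerase that makes fructose 6-phosphate. It rose from 338, 299 and 285 FPKM in WT to 426, 429 and 488 FPKM in MSTN-KO, with no overlap, by 0.54 on the log2 scale (standard error 0.13, limma adjusted p = 0.0108). Scaling to the same sum (0.26) or leaving out WT replicate 2 (0.53) ended the call.

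Of the 3 genes of phosphofructokinase, the committed step of glycolysis, 1 rose and 1 fell. *Pfkl*, the liver-type subunit gene, had 101, 87.02 and 81.7 FPKM in WT and 135.1, 128 and 145.1 FPKM in MSTN-KO. The groups did not overlap, and the rise was 0.59 (standard error 0.13, limma adjusted p = 0.00652, or 0.0511 with scaling to the same sum). *Pfkp*, the platelet-type subunit gene, had 46.5, 46.2 and 42.3 FPKM in WT and 19.3, 22.1 and 22.8 FPKM in MSTN-KO. It fell by 1.04 (standard error 0.13, limma adjusted p = 1.09e-04), and the MSTN-KO libraries were at 42.8%, 49.2% and 50.55% of the WT mean. *Pfkp* lies on chromosome 13, where the median log2 fold change over 410 genes was -0.34. The tested genes on either side of it, *Pitrm1* and *Wdr37*, fell as well, by 0.53 and 0.81 (limma adjusted p = 0.0207 and 0.00672). The part of its chromosome in the fall of *Pfkp* was not tested. *Pfkm*, the muscle subunit gene, had 26.9, 24.3 and 20.6 FPKM in WT and 28.6, 27.1 and 30.02 FPKM in MSTN-KO, a difference that was not called (0.25, limma adjusted p = 0.212).

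The PFKFB enzymes make and break down fructose 2,6-bisphosphate, the strongest activator of phosphofructokinase. All 4 genes were tested and none was called by limma (0 also at an unadjusted p under 0.05), with log2 fold changes from -0.33 (*Pfkfb2*) to 0.32 (*Pfkfb3*). *Pfkfb3* was at 1.56, 1.48 and 1.66 FPKM in WT and 2.73, 2.01 and 1.90 FPKM in MSTN-KO, without overlap (limma adjusted p = 0.202). *Pfkfb4* had the highest level of the 4, at 7.01 to 7.74 FPKM in WT and 7.09 to 8.08 FPKM in MSTN-KO.

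Lower glycolysis held the most abundant transcripts. Of its 11 genes 5 rose and 2 fell with FPKM as deposited, and the 5 rises kept their sign but not their call with scaling to the same sum. *Gapdh* encodes the dehydrogenase that follows the triose split and was the reference gene of the study's qRT-PCR. It had 5774, 5138 and 5186 FPKM in WT and 7415, 7303 and 8580.4 FPKM in MSTN-KO. No library overlapped, and the mean was 1.45 times the WT mean (log2 fold change 0.53, standard error 0.15, limma adjusted p = 0.0295). With quantile normalization, which forces all libraries onto the same distribution, its difference turned to -0.05. It was 0.24 with scaling to the same sum.

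*Aldoa*, the aldolase of muscle and most other cells, had 1446, 1209.5 and 1069 FPKM in WT and 1800.3, 1742 and 1964 FPKM in MSTN-KO, a rise of 0.57 (limma adjusted p = 0.0171). *Tpi1*, for triose phosphate isomerase, had 1077, 868 and 854.5 FPKM against 1186, 1289 and 1467 FPKM (0.50, limma adjusted p = 0.0312). The phosphoglycerate kinase gene *Pgk1* had 619.9, 641 and 693 FPKM against 852, 835 and 976 FPKM (0.44, limma adjusted p = 0.0299). These genes did not overlap between the groups, and WT replicate 1 was the highest WT library for *Aldoa* and *Tpi1* but the lowest for *Pgk1*. All 5 rises of lower glycolysis lost their call without WT replicate 2, WT replicate 3 or MSTN-KO replicate 1, with log2 fold changes from 0.40 to 0.59. *Tpi1*, *Pgk1* and *Pgam1* also lost it without MSTN-KO replicate 3 (0.41, 0.37 and 0.34), and *Gapdh*, *Pgk1* and *Pgam1* without WT replicate 1 (0.59, 0.41 and 0.46). Many of these enzymes have processed pseudogenes, and how the authors' counting assigned shared reads is not given in the sources used here.

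*Pgam1* and *Pgam2* encode the general and the muscle form of phosphoglycerate mutase and moved in opposite directions. *Pgam1* had 573, 529 and 588 FPKM in WT and 677, 748 and 892 FPKM in MSTN-KO, a rise of 0.45 (standard error 0.14, limma adjusted p = 0.0392) that was lost in 10 of 16 alternatives. *Pgam2* had 3.35, 5.38 and 1.76 FPKM in WT and 0.941, 0.557 and 0.695 FPKM in MSTN-KO. It fell by 1.30 (standard error 0.25, limma adjusted p = 0.00391). WT replicate 3 was the lowest WT library and still lay above all MSTN-KO libraries.

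None of the 3 enolase genes was called by limma, nor did any have an unadjusted p under 0.05. *Eno1*, the general form, had 2205, 1847 and 1835 FPKM in WT and 2041, 2038 and 2354 FPKM in MSTN-KO (0.13, limma adjusted p = 0.560). *Eno1b*, a near-identical gene copy outside the list, was given 468 to 565 and 541 to 679 FPKM, so the split of reads between it and *Eno1* is uncertain. *Eno3*, the muscle form, was high in myoblasts of both groups, at 637, 584 and 615 FPKM and 622, 603 and 765 FPKM (0.11, limma adjusted p = 0.607). The neuronal form *Eno2* lay between 2.48 and 4.05 FPKM. The signs of all 3 turned in at least 1 alternative.

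*Aldoc*, the brain-type aldolase gene, had 1.10, 1.11 and 0.683 FPKM in WT and 0.158, 0.234 and 0.288 FPKM in MSTN-KO. It fell by 0.67 (standard error 0.18, limma adjusted p = 0.0190) from a level far below that of *Aldoa*, and lost the call with quantile normalization and without WT replicate 1 (-0.62), WT replicate 2 (-0.62) or MSTN-KO replicate 1 (-0.63). *Pkm*, whose 2 protein forms cannot be told apart in gene-level values, had 1939, 1696 and 1743 FPKM in WT and 2253, 2155 and 2672 FPKM in MSTN-KO. The groups did not overlap, but the difference of 0.39 was not called (limma adjusted p = 0.0742) except without MSTN-KO replicate 2 (0.46) and with the length and GC correction (0.28).

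The lactate step held the largest difference, in a transporter that exports lactate. *Slc16a3* encodes MCT4, the low-affinity lactate exporter of glycolytic cells and fast muscle fibres. It had 40.6, 28.7 and 27.8 FPKM in WT and 0.993, 0.867 and 1.06 FPKM in MSTN-KO. The WT mean was 33.3 times the MSTN-KO mean (log2 fold change -4.06, standard error 0.17, limma adjusted p = 4.79e-09), and the value stayed between -4.90 and -3.89 under the alternatives. The tested genes on either side of it on chromosome 11, *Ccdc57* and *Csnk1d*, had log2 fold changes of 0.22 and 0.05, neither of them called (limma adjusted p = 0.383 and 0.797).

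*Slc16a1*, for the widespread transporter MCT1, had 39.4, 41.2 and 44.7 FPKM in WT and 30.9, 36.3 and 31.8 FPKM in MSTN-KO. All MSTN-KO libraries were lower, but the difference of -0.33 was not called (limma adjusted p = 0.0827) except with scaling to the same sum (-0.62). In WT the 2 transporters were thus at similar levels, and in MSTN-KO *Slc16a3* held 2.89% ± 0.485 (SD, n = 3) of their summed FPKM against 43.4% ± 6.50 in WT. *Ldha*, the lactate dehydrogenase subunit gene of muscle and glycolytic cells, had 1363, 1169 and 1238 FPKM in WT and 1709, 1745 and 2138 FPKM in MSTN-KO. It rose by 0.56 (standard error 0.14, limma adjusted p = 0.0164) and was called with scaling to the same sum too (0.28, limma adjusted p = 0.0417). The call was lost without WT replicate 2 (0.51) or WT replicate 3 (0.55) and with quantile normalization (0.19). *Ldhb*, the heart-type subunit gene, lay between 8.50 and 10.8 FPKM in the 6 libraries (-0.15, limma adjusted p = 0.472).

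The promoters of *Slc16a3* and *Ldha*, the lactate genes that moved in opposite directions, are shown with those of *Pgam2* and *Pygm*, the muscle forms that fell. Each is the stretch from 250 bases before to 50 bases after a RefSeq transcription start on GRCm38.p6, written 5′ to 3′ on the gene's strand. Capitals mark ACGTG, the core of the hypoxia response element, on either strand, and CAGCTG, a myogenic E-box that reads the same on both strands. The *Slc16a3* window is chr11:120948817-120949116 on the plus strand, the *Ldha* window chr7:46845554-46845853 on the plus strand, the *Pgam2* window chr11:5803747-5804046 on the minus strand and the *Pygm* window chr19:6384158-6384457 on the plus strand. *Ldha* has 2 such windows, of which the one with more ACGTG matches is shown.
Slc16a3: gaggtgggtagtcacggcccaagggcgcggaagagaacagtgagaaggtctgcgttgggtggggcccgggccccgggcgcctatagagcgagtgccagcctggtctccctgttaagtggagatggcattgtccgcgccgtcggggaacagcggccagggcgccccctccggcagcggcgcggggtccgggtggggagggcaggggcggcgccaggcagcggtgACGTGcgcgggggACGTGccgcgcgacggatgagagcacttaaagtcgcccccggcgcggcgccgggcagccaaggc
Ldha: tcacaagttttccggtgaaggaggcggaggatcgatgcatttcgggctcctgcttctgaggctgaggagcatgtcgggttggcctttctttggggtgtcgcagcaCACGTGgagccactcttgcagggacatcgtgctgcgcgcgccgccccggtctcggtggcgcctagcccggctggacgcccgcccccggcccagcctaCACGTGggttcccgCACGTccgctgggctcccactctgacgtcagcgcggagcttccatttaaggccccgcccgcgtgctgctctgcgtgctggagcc
Pgam2: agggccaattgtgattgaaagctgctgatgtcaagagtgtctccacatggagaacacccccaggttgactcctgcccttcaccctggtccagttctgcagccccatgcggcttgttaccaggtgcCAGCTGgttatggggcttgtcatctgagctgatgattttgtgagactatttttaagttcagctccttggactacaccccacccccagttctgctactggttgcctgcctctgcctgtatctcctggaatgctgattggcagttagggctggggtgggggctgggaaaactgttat
Pygm: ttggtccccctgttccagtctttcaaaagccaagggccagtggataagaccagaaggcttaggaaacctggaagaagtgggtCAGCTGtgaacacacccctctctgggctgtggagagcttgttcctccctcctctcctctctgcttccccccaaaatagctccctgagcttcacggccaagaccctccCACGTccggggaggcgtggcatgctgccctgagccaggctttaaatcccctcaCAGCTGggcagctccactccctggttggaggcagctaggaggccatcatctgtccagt
The *Slc16a3* window held 2 ACGTG matches, close together, and the *Ldha* window 5, counting each of its 2 CACGTG palindromes once per strand. The other *Ldha* window held 0 ACGTG matches. The part of this motif in the differences of *Slc16a3* and *Ldha* was not tested. The *Pgam2* window held 1 CAGCTG and no ACGTG match, and the *Pygm* window 2 CAGCTG and 1 ACGTG. Of the 44 listed genes, 41 were in the promoter table, *Pygl* included (not *Slc2a3*, *Slc2a4* and *Pdp1*), with 61 windows. ACGTG was in 27 of the 61 windows (44.3%), in 25.9% of the windows of all tested genes and in 19.6% of all 32851 windows. CAGCTG was in 12 of the 61 (19.7%), in 15.2% of the windows of tested genes and in 16.3% of all. A match is a description of the letters and not of a bound site.

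Of the 7 genes around pyruvate dehydrogenase, 1 rose. *Pdk1* encodes a kinase that inhibits the complex and is a known target of hypoxia signalling. It had 7.28, 7.33 and 6.57 FPKM in WT and 11.5, 12.9 and 9.75 FPKM in MSTN-KO, without overlap (log2 fold change 0.61, standard error 0.15, limma adjusted p = 0.0128, or 0.145 with scaling to the same sum). Its relatives *Pdk2*, *Pdk3* and *Pdk4* were not called, with log2 fold changes of 0.16, -0.07 and -0.22. The subunit genes *Pdha1* (51.2, 57.6 and 60.9 FPKM in WT, 64.2, 64.7 and 56.1 FPKM in MSTN-KO) and *Pdhb* (61.4, 70.1 and 75.5 FPKM, then 59.8, 55.9 and 67.7 FPKM) and the phosphatase gene *Pdp1* were not called either, and each pair of groups overlapped. *Pdk4* was lower in each MSTN-KO library. With scaling to the same sum *Pdk4* (-0.50, limma adjusted p = 0.0324) and *Pdhb* (-0.45, limma adjusted p = 0.0136) were called lower, where 21.8% of all genes were.

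Hypoxia response genes outside glycolysis, listed for comparison, were tested for 11 genes, with a median of 0.34 on the log2 scale. Of these *Bnip3* (0.61), *P4ha1* (0.50) and *Ddit4* (0.76) rose (limma adjusted p = 0.00871, 0.0270 and 0.00163). Their summed FPKM was 305 to 320.2 in WT and 397 to 414 in MSTN-KO, but as a share of all FPKM the groups overlapped. Their part in the differences of *Pdk1* and *Ldha* was not tested.

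Glycogen genes reached at most 29.7 FPKM in any library, and 1 of the 7 tested was called. *Pygm* encodes muscle glycogen phosphorylase, which releases glucose from glycogen in fibres. It had 1.79, 1.55 and 0.482 FPKM in WT and 0.278, 0.212 and 0.248 FPKM in MSTN-KO. The fall of 0.81 (standard error 0.23, limma adjusted p = 0.0257) was lost in 5 of 15 alternatives, among them leaving out WT replicate 1 (-0.64), WT replicate 2 (-0.71) or MSTN-KO replicate 3 (-0.82). *Pygb*, the brain form, lay above *Pygm*, at 23.4 to 29.0 FPKM in WT and 24.5 to 29.7 FPKM in MSTN-KO (0.08, limma adjusted p = 0.716).

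No gene of glycogen synthesis was called with FPKM as deposited, and 3 of the 4 were called under some alternatives. *Gys1*, for muscle glycogen synthase, had 20.3, 18.1 and 15.9 FPKM in WT and 20.7, 21.7 and 23.6 FPKM in MSTN-KO (0.27, limma adjusted p = 0.186). *Ugp2*, which makes UDP-glucose, had 21.8, 23.02 and 27.4 FPKM in WT and 10.7, 23.9 and 13.9 FPKM in MSTN-KO. MSTN-KO replicate 2 lay within the WT range, and the difference of -0.61 was not called (limma adjusted p = 0.0745). Without that library it was -0.91 and called (limma adjusted p = 0.00161), and it was also called with scaling to the same sum (-0.89, limma adjusted p = 0.0350) and with the replicate block (limma adjusted p = 0.0203). The glycogenin gene *Gyg*, for the primer of glycogen chains, was lower in each MSTN-KO library (-0.26, limma adjusted p = 0.194), and the branching enzyme gene *Gbe1* was higher in each (0.37, limma adjusted p = 0.131). *Gyg* was called in 2 alternatives, among them scaling to the same sum (-0.54), and *Gbe1* in 4, among them leaving out MSTN-KO replicate 3 (0.51). *Phka1*, the muscle subunit gene of phosphorylase kinase, had 2.85, 2.91 and 2.50 FPKM in WT and 3.06, 2.94 and 1.96 FPKM in MSTN-KO, and *Phkg1* was at 0.0810 to 0.389 FPKM in all 6 libraries.

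Muscle and general isozymes were compared within each library in 10 families. The log2 ratio was log2(FPKM + 1) of the muscle form minus log2(FPKM + 1) of the summed general forms. The added 1 dampens the ratios of forms at low FPKM, and such ratios can move when a library is rescaled. The share of the muscle form in the summed FPKM does not change when that library is rescaled as a whole. The ratio was lower in every MSTN-KO library than in every WT library for 4 families, higher for 2, and overlapped for 4. In the plot of shares, *Pgam2* was 0.628% ± 0.357 (SD, n = 3) of mutase FPKM in WT and 0.0970% ± 0.0363 in MSTN-KO. *Pygm* was 4.63% ± 2.27 of phosphorylase FPKM (with *Pygb*) in WT and 0.914% ± 0.181 in MSTN-KO. The log2 ratios of *Slc16a3*, *Pgam2*, *Pygm* and *Phka1* differed by -3.73, -1.75, -0.89 and -0.35 (MSTN-KO minus WT). For *Phka1* this was a share of 33.1% ± 2.48 in WT and 27.1% ± 4.82 in MSTN-KO.

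Not all muscle forms went down. *Ldha* made up 99.2% ± 0.122 of lactate dehydrogenase FPKM in WT and 99.5% ± 0.0382 in MSTN-KO, a log2 ratio higher by 0.71, and the ratio of *Slc2a4* to the other transporters was higher by 0.35. *Eno3* was 23.8% ± 1.36 of enolase FPKM in WT and 23.5% ± 0.866 in MSTN-KO, and *Pfkm* was 15.04% ± 0.673 and 15.4% ± 0.236 of phosphofructokinase FPKM. *Hk2* and *Phkg1* overlapped as well. Each of the 6 ratios without overlap had p = 0.1 (two-sided exact permutation test), the smallest that 3 libraries against 3 can give, and 0.167 after adjustment over the 10 ratios, so no ratio could pass 0.05. Of single genes, 19.3% of all tested had no overlap with MSTN-KO higher and 18.1% with MSTN-KO lower, and of the 41 genes 16 (39.0%) and 9 (22.0%).

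**Figure D3:**
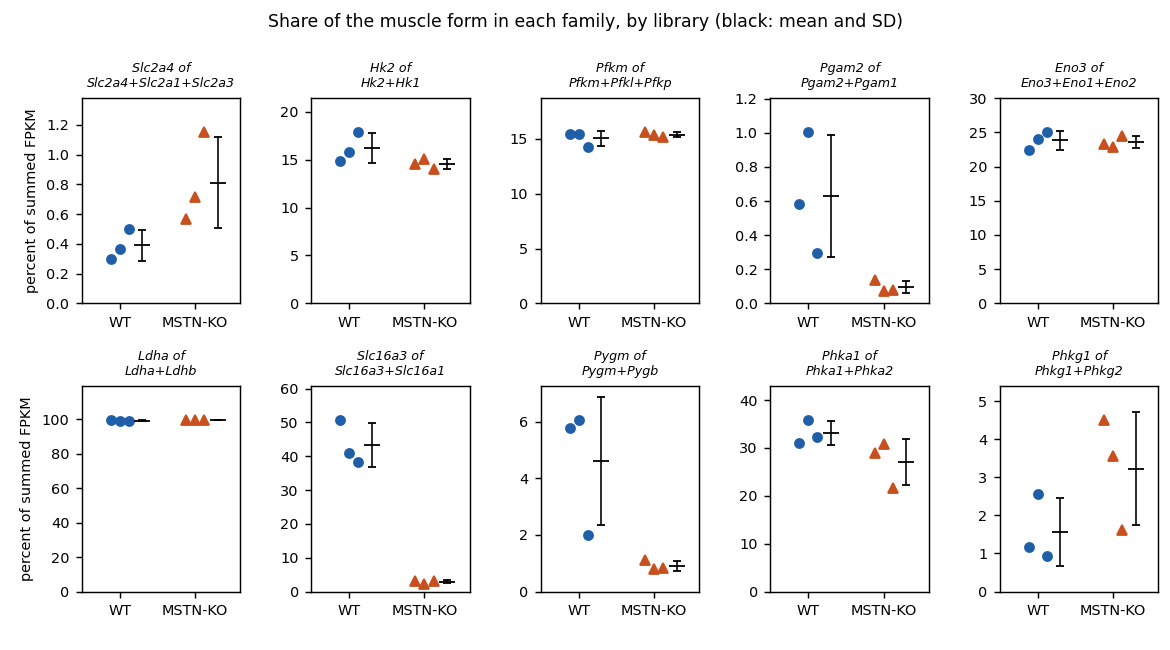
Share of the muscle form in the summed FPKM of its family, in percent, in the 3 WT libraries (circles) and the 3 MSTN-KO libraries (triangles), with mean and SD in black. *Slc16a3* drops from 43.4% to 2.89% of the transporter pair and *Pgam2* and *Pygm* also lie lower in MSTN-KO, while *Eno3* and *Pfkm* overlap between the groups.

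Genes of differentiated muscle were compared with the genes that fell. Of 14 tested genes on a list of fibre proteins and *Myog*, 13 fell in MSTN-KO, with a median log2 fold change of -2.37. Of the 14, *Myh3*, *Myh1*, *Ckm* and *Neb* reached 1 FPKM in WT only, and the 10 that reached it in both groups were all called lower. Their summed FPKM was 937, 985 and 294 in the WT libraries and 43.9, 65.6 and 77.1 in the MSTN-KO libraries. WT replicate 3 was thus at 39.8% of the WT mean for this sum, at 37.9% for *Pygm*, 50.3% for *Pgam2* and 70.7% for *Aldoc*, but at 86.0% for *Slc16a3* and 94.0% for *Pfkp*. All 5 genes stayed below WT replicate 3 in each MSTN-KO library. *Slc16a3* was 2.68% to 3.27% of the WT mean in MSTN-KO, and the muscle list 5.95% to 10.4%. In these bulk samples, fewer differentiated cells and less RNA per cell cannot be told apart.

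**Figure D4:**
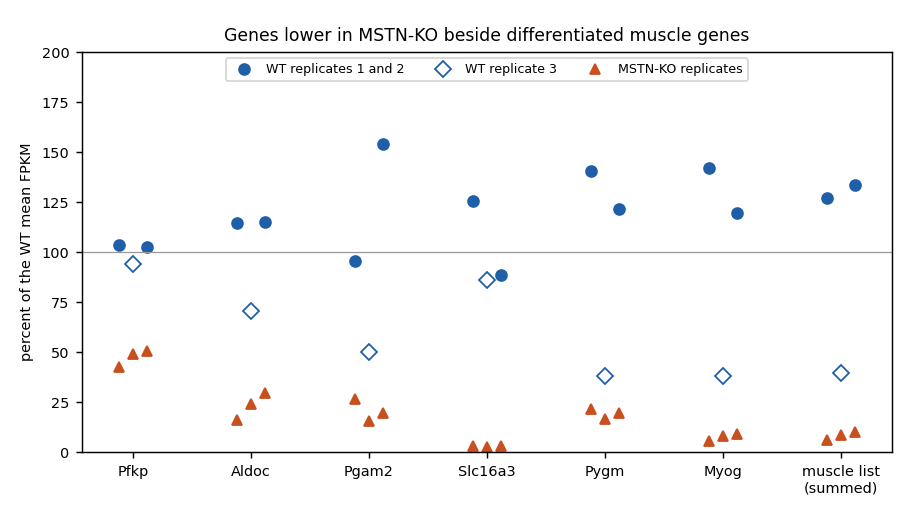
FPKM of the 5 genes that fell, of *Myog* and of the summed differentiated muscle list, as percent of the WT mean. WT replicate 3 (open diamonds) is low for *Pygm*, *Pgam2*, *Myog* and the muscle list, at 37.9% to 50.3%, and near the WT mean for *Slc16a3* and *Pfkp*.

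As a whole, the 43 genes held 2.22%, 2.03% and 1.94% of all FPKM in the WT libraries and 2.22%, 2.29% and 2.31% in the MSTN-KO libraries. This share does not change when a library is rescaled as a whole, and WT replicate 1 came close to the MSTN-KO libraries. Lower glycolysis made up most of it, at 1.65% to 1.89% in WT and 1.90% to 1.97% in MSTN-KO.

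Further genes of glucose and glycogen metabolism were taken from a second list of 62, of which 52 were in the tables and 39 were tested. With FPKM as deposited 6 rose (15.4%) and 2 fell (5.13%), where 8.78% and 8.96% of all genes did. The median log2 fold change was 0.02. With scaling to the same sum 3 were called higher and 5 lower, where 3.23% and 21.8% of all genes were. The pentose phosphate branch, which leaves glycolysis at glucose 6-phosphate to make NADPH and ribose, held 4 of the 6 rises among its 8 tested genes (50%). *Tkt*, for transketolase, had 30.7, 28.03 and 30.8 FPKM in WT and 53.5, 48.02 and 56.7 FPKM in MSTN-KO (0.80, standard error 0.12, limma adjusted p = 8.50e-04) and was called under all 16 alternatives. *G6pdx*, the entry enzyme of the branch, had 68.0, 62.5 and 65.3 FPKM against 96.6, 85.1 and 110 FPKM (0.56, limma adjusted p = 0.00966, lost without WT replicate 2 only, at 0.53). *Pgd* and *Pgls* rose by 0.52 and 0.48 (limma adjusted p = 0.0213 and 0.0245) and lost their calls with scaling to the same sum and without WT replicate 2 (0.50 and 0.46), MSTN-KO replicate 1 (0.50 and 0.46) or MSTN-KO replicate 3 (0.40 and 0.42). *Pgd* also lost it without WT replicate 1 (0.52) and *Pgls* without WT replicate 3 (0.42).

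*Pcx*, for pyruvate carboxylase, which turns pyruvate into oxaloacetate, had 5.11, 4.17 and 3.56 FPKM in WT and 10.8, 8.21 and 11.2 FPKM in MSTN-KO. It rose by 1.07 (standard error 0.17, limma adjusted p = 9.47e-04) under all 16 alternatives. *Pgm1*, for the phosphoglucomutase between glycogen and glycolysis, rose by 0.48 (limma adjusted p = 0.0189) and lost the call with scaling to the same sum (0.20) and without WT replicate 2 (0.47), WT replicate 3 (0.45) or MSTN-KO replicate 3 (0.40). *Slc2a10*, for the transporter GLUT10, fell from 1.48, 1.49 and 1.18 FPKM to 0.0614, 0.118 and 0.133 FPKM (-1.11, limma adjusted p = 7.01e-04), and reached 1 FPKM in WT only. *Stbd1*, for a glycogen-binding protein, fell by 0.51 (limma adjusted p = 0.0159) and lost the call without WT replicate 2 (-0.49) or MSTN-KO replicate 1 (-0.43). The hexosamine branch had 4 tested genes and no call by limma, with 1 gene at an unadjusted p under 0.05.

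**Figure D5:**
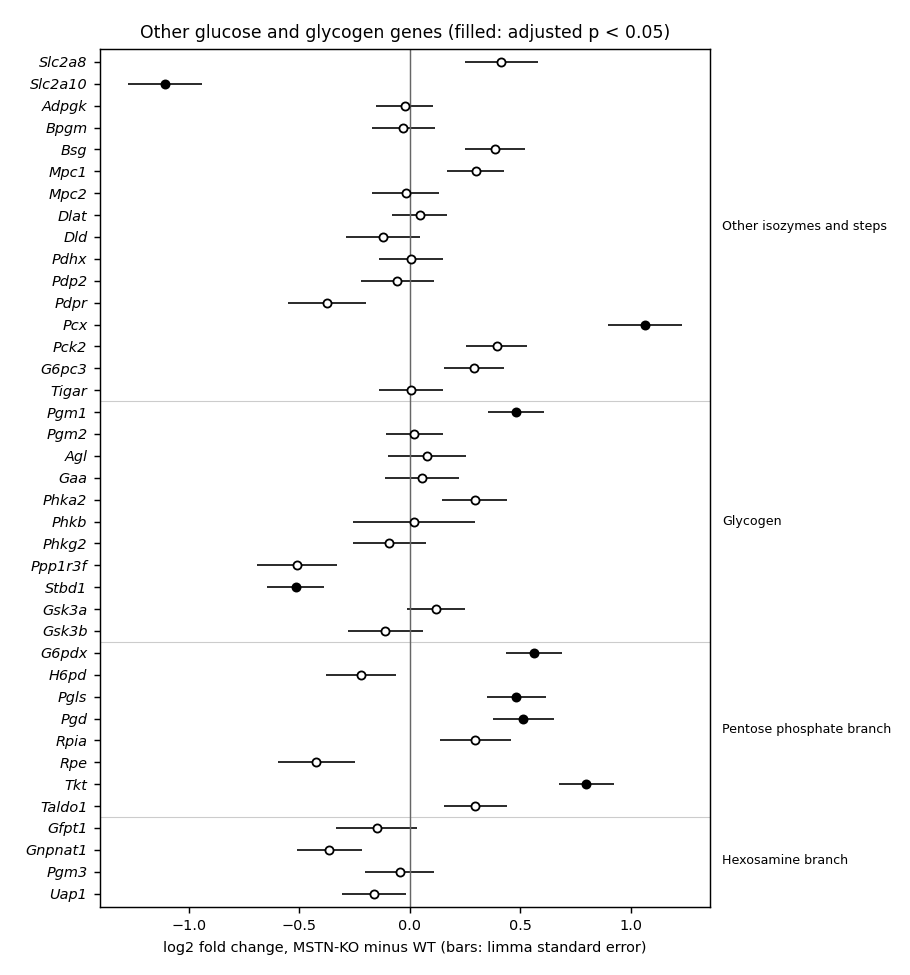
Log2 fold change (MSTN-KO minus WT, with limma standard error) of the 39 tested genes of the second list, grouped by branch, with filled circles for an adjusted p under 0.05. The filled circles right of 0 are *Pcx*, *Pgm1*, *G6pdx*, *Pgls*, *Pgd* and *Tkt*, and those left of 0 are *Slc2a10* and *Stbd1*.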

How the data were processed

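RNA-seq of 3 WT and 3 MSTN-KO C2C12 libraries was analysed, with groups taken from the genotype label. The authors deposited FPKM values per gene, 1 file a library. The submitters' processing notes list Bowtie 0.12.2 and mm8 without a role, and the annotation is not given in the sources used here. FPKM do not sum to a fixed total, so a shift in highly expressed genes moves all values. Symbols came from GENCODE M21 (14445 of 14548 identifiers matched), and no coordinates of the files were used. Genes reaching 1 FPKM in 1 or more libraries were fitted as log2(FPKM + 1) with limma 3.58.1 in R 4.3.3 (eBayes with trend), with Benjamini-Hochberg adjustment over all 10837 genes, and called at 0.05. Low genes change by more than their fold change on this scale shows. No label says that replicates were separate cultures, so p-values measure the spread between these libraries, which may be technical. Isozyme ratios were compared with exact permutation tests (scipy 1.17.1). Values per library were given for genes called with a log2 fold change of at least 1 in size, both sides of each isozyme ratio, *Gapdh* and *Pkm*, with others chosen after their values were seen. The members and lists were chosen with earlier results of these data known. Alternatives were other pseudocounts, filters and scalings, no trend, a replicate block, a correction for length and GC (mgcv 1.9.3), and leaving out each library. On simulated data of 10837 genes with 200 changed, the fit called 84% of changes of 1 and 99% of changes of 2 on the log2 scale, and 7 unchanged genes. The changed genes were drawn only from those with a mean log2(FPKM + 1) above 3. These rates therefore do not cover low genes such as *Pgam2*, *Pygm* and *Aldoc*. Nor do they cover changes smaller than 1, such as the called rises of the members, which were not simulated.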

Additional observations from a re-analysis of the deposited data

How the results depend on the processing

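With FPKM as deposited, 9 genes rose and 5 fell. Rises numbered 5 without a filter (11.6%, all genes 4.95%) and 5 with quantile normalization (12.2%, all genes 8.96%). There was 1 with scaling to a sum of 1000000 (2.44%, all genes 3.23%). Falls numbered 3 with a filter on the mean (7.89%, all genes 8.53%) and 3 with quantile normalization (7.32%, all genes 8.68%). They numbered 10 with scaling to that sum (24.4%, all genes 21.8%), since that scaling lowers all log2 fold changes (median -0.26). The median over the genes, 0.13 as deposited, became 0.0509 with quantile normalization and -0.16 with scaling to the sum. A pseudocount of 0.1 gave 1 higher and 5 lower genes beyond a log2 fold change of 1, against 0 and 3. The share of all genes beyond it at that pseudocount was not computed. With libraries left out in turn, rises numbered 2 to 10, falls 3 to 6, rises on the second list 2 to 7 and its falls 1 to 3. Over these fits 3.92% to 11% of all genes were called higher and 5.61% to 11.6% lower. On that list, scaling to the sum gave 3 rises and 5 falls, and a filter on the mean 1 fall. The replicate block gave 9 rises and 6 falls (22% and 14.6%, all genes 8.66% and 9.24%). With the length and GC correction added it gave 8 and 5 (19.5% and 12.2%, all genes 8.31% and 9.88%). The paired isozyme ratios could not go below p = 0.25 in their exact test. Same-numbered libraries deviated with r of -0.02, -0.13 and -0.14, so the numbers were not taken to pair them. The calls of named markers, of neighbouring genes and of *Slc16a11* and *Slc16a13* were not followed under the alternatives. For the tested members and the called genes of the second list, 660 values under alternatives kept sign and call. Another 71 lost and 16 gained a call, and 33 changed sign. With scaling to the sum the latter were *Eno1* (-0.16), *Eno3* (-0.18), *Pdp1* (-0.24), *Pdk2* (-0.0862), *Pfkm* (-0.0239), *Pygb* (-0.20), *Pdha1* (-0.16), *Slc2a1* (-0.0907), *Pfkfb4* (-0.25), *Gys1* (-0.0028) and *Hk2* (-0.14). With quantile normalization they were *Eno2* (0.0242), *Pkm* (-0.0013), *Phka1* (0.10), *Gapdh* (-0.0494), *Eno3* (-0.15) and *Eno1* (-0.28), and with the percentile 75 *Pfkfb4* (-0.0379) and *Pdp1* (-0.0351). The length and GC correction, with and without the block, turned *Eno3* (-0.0076), *Phka1* (0.0423) and *Pfkfb4* (-0.0588). Leaving out single libraries turned the sign of *Pdk3* (range -0.13 to 0.0410), *Pdp1* (-0.0945 to 0.16), *Eno2* (-0.25 to 0.0027), *Pfkfb4* (-0.0471 to 0.0386) and *Phka1* (-0.14 to 0.0919). The isozyme ratio of *Eno3* turned with a mean of log2 values (0.0993) and ran from -0.0781 to 0.0294 with libraries left out, and that of *Pfkm* from -0.00889 to 0.0537. The cause of the other changes was not tested. No read counts were used, so counting error per gene is unknown.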

Other observations

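The SLC16 family, which includes MCT1 and MCT4, had 13 genes in the tables, of which 5 were tested. Besides *Slc16a3*, *Slc16a11* fell, a gene taken up after its values were seen. It had 15.4, 17.2 and 12.5 FPKM in the WT libraries and 1.68, 1.00 and 2.32 FPKM in the MSTN-KO libraries (log2 fold change -2.61, standard error 0.19, limma adjusted p = 1.42e-06). The groups did not overlap. *Slc16a13*, another member of the family on the same chromosome, had 21.7, 21.9 and 24.3 FPKM in WT and 24.0, 24.2 and 25.2 FPKM in MSTN-KO (0.11, limma adjusted p = 0.576).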
